A study of Drosophila melanogaster with 4 samples.

Results

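The left arm of chromosome 2 (2L) of *Drosophila melanogaster* was described from the H3K23ac-enriched regions that lie outside its centromere-side end. Members were all regions of the 3 deposited lists on 2L that ended at least 2 Mb before the proximal end of the arm, whose sequence is 23011544 bp long (FlyBase release 5). This gave 1800 of the 10281 regions of replicate 1 (17.5%), 1327 of the 7422 of replicate 2 (17.9%) and 3253 of the 18064 of the combined list (18.0%). The libraries came from wild-type Oregon-R embryos 14 to 16 hr old, fixed with 1.8% formaldehyde: 2 chromatin immunoprecipitation sequencing (ChIP-seq) replicates with an antibody against acetylated lysine 23 of histone H3, and 2 input libraries whose own values were not used here. All samples share this strain, genotype and stage, so there is no second condition to compare, and whole embryos mix the chromatin of every cell type present. Nothing in the labels tells whether the replicates were separate embryo collections, and differences between them may be technical. The number of reads behind each list is unknown.

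Histone acetylation neutralises the positive charge of lysines in the histone tails and marks chromatin that is open to transcription. In flies, H3K23 is acetylated by the KAT6-family enzyme Enok and by CBP, the product of *nejire*, and the mark is removed by histone deacetylases. Arm 2L is mostly euchromatic, and its sequence runs from the telomere-side (distal) end at position 1 towards the centromere. Genes are not named, because the gene table at hand follows release 6 and positions were not moved between releases. A region missing from a list means only that the threshold of the submitters was not passed there.

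H3K23ac regions covered a minor part of 2L in each replicate, mostly as regions of 1 to 3 kb. Replicate 1 covered 3.91 Mb or 18.6% of this sequence, and replicate 2 covered 2.89 Mb or 13.7%, a mean of 16.2% ± 3.44 (SD, n = 2). The combined list covered 8.42 Mb or 40.1%. There were 85.7 regions per Mb in replicate 1, 63.2 in replicate 2 and 154.8 when combined. Widths hardly differed between the replicates, with medians of 1820 and 1808 bp and maxima of 13545 and 15913 bp. Combined regions had a median width of 1843 bp but reached 29749 bp. Regions of at least 5 kb made up 2.83% of replicate 1 (51 regions) and 2.94% of replicate 2 (39 regions), and 9.65% of combined regions (314), against 3.79%, 3.34% and 9.77% over the whole series. The submitters' score, 1 value per region on a log2 scale, had medians of 0.65 in both replicates and 0.45 in the combined list, which cannot be set against each other because the reference of the score is not known. Wide regions tended to score high, with a Spearman's rho between width and score of 0.53 and 0.52 in the replicates and 0.42 for combined regions, given as a description across regions.

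Neighbouring regions lay close together, with a long tail of wide spaces. The median space to the next region was 4120 bp and 4992 bp in the replicates and 1625 bp among combined regions, well below the means of 9490, 13647 and 3863 bp. Spaces under 1 kb made up 18.9%, 20.4% and 38.8% of all spaces, respectively. At the other end, 222 spaces of replicate 1 and 234 of replicate 2 reached 20 kb, and the widest measured 208856 and 330350 bp. In 210 windows of 100 kb, the variance of the number of regions was 2.82 times its mean in replicate 1, 3.53 times in replicate 2 and 1.49 times for combined regions. This ratio was highest in the list with the fewest regions.

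Dense and sparse windows were largely the same in both replicates. Covered share per window ranged from 0 to 55.2% in replicate 1 (median 17.7%) and from 0 to 58.5% in replicate 2 (median 11.98%), with a Spearman's rho of 0.88 across the 210 windows. Replicate 1 was higher in 172 windows and replicate 2 in 37. Of the 21 densest windows of each replicate, 13 were in both sets. The densest 52 windows by the mean of the replicates held 49.3% of the covered bases, and the sparsest 52 held 5.21%. A mean of at least 40% was reached by 7 windows (3.33%), against 5.23% of the windows of the 5 large arms outside their proximal 2 Mb.

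**Figure D1:**
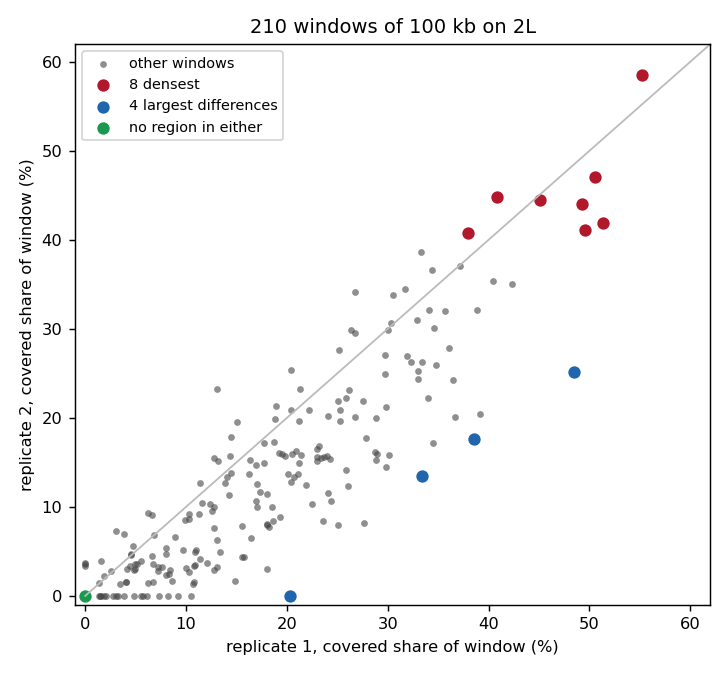
Covered share of each 100-kb window of 2L in replicate 1 (horizontal, %) and replicate 2 (vertical, %), with 1 point per window and a grey line where both are equal. Of the 210 windows, 172 lie below the line; the 8 densest all lie above 37% in both replicates, and the window with no region in either sits at the origin.

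The densest window, 1400001 to 1500000, had covered shares of 55.2% and 58.5% in replicates 1 and 2 and 92.5% when combined, and 44.1% of its bases lay in both replicates. It was followed by 19300001 to 19400000, with 50.6% and 47.0%, and by 600001 to 700000, with 51.4% and 41.9% in replicates 1 and 2. The windows 3500001 to 3600000 (49.2% and 44.0%) and 8800001 to 8900000 (49.6% and 41.1%) came next. These dense windows stand far apart, from the distal end to beyond 19 Mb. The window 11300001 to 11400000 was nearly equal in the replicates, at 45.1% and 44.5%, and 19900001 to 20000000 was covered to 40.8% and 44.9%. The last of the 8, 1900001 to 2000000, was covered to 38.0% and 40.8%. In 3 of these 8 windows replicate 2 was the higher one.

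Dense windows could end within 100 kb. Covered share changed by a median of 7.34 percentage points from one window to the next over 209 steps. At 1.5 Mb the mean of the replicates fell from 56.9% to 14.7%, after a rise from 16.9% to 56.9% at 1.4 Mb. At 20 Mb it fell from 42.9% to 9.76%, and at 18.3 Mb it rose from 3.59% to 33.1%. Both replicates had each of these changes, which were chosen after their values were seen. Windows resembled their neighbours: the rho of the mean covered share was 0.47 for adjacent windows, 0.30 at 200 kb and 0.18 at 300 kb. It then stayed level, with 0.18 at 500 kb and 0.19 at 1000 kb, and was 0.04 at 2000 kb.

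The 4 windows that differed most between the replicates all had more coverage in replicate 1. The window 4500001 to 4600000 had covered shares of 48.5% and 25.2% in replicates 1 and 2, and 4200001 to 4300000 to 38.5% and 17.7%. In 6300001 to 6400000 the shares were 33.4% and 13.5%. The fourth, 5500001 to 5600000, held 12 regions of replicate 1, covering 20.3%, and none of replicate 2. The combined list covered 35.5% of it. In the neighbouring run from 5.1 to 5.5 Mb both replicates were dense, with 34.2% and 30.4%.

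By position, coverage was highest in the first Mb and lowest at 17 to 18 Mb, with an uneven course between and beyond. The mean of the replicates was 12.3% in the 3rd Mb, within the distal 7 Mb, and 25.1% in the 20th Mb. The covered shares of the first Mb were 31.7% and 26.3% in the replicates and 57.2% when combined. Those of the 18th Mb were 5.77%, 3.07% and 20.7%, with 32 and 17 regions in the replicates. The 20th Mb, 2 Mb further on, reached 28.5% and 21.8%. Across the 21 bins of 1 Mb the covered shares of the replicates had a rho of 0.94. The sequence was also divided into a distal (0 to 7 Mb), a middle (7 to 14 Mb) and a proximal segment (beyond 14 Mb), of which replicate 1 covered 24.7%, 15.5% and 15.7%. Replicate 2 covered 18.4%, 11.2% and 11.7%, in the same order. The middle and proximal segments differed by less than 1 percentage point in either replicate.

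**Figure D2:**
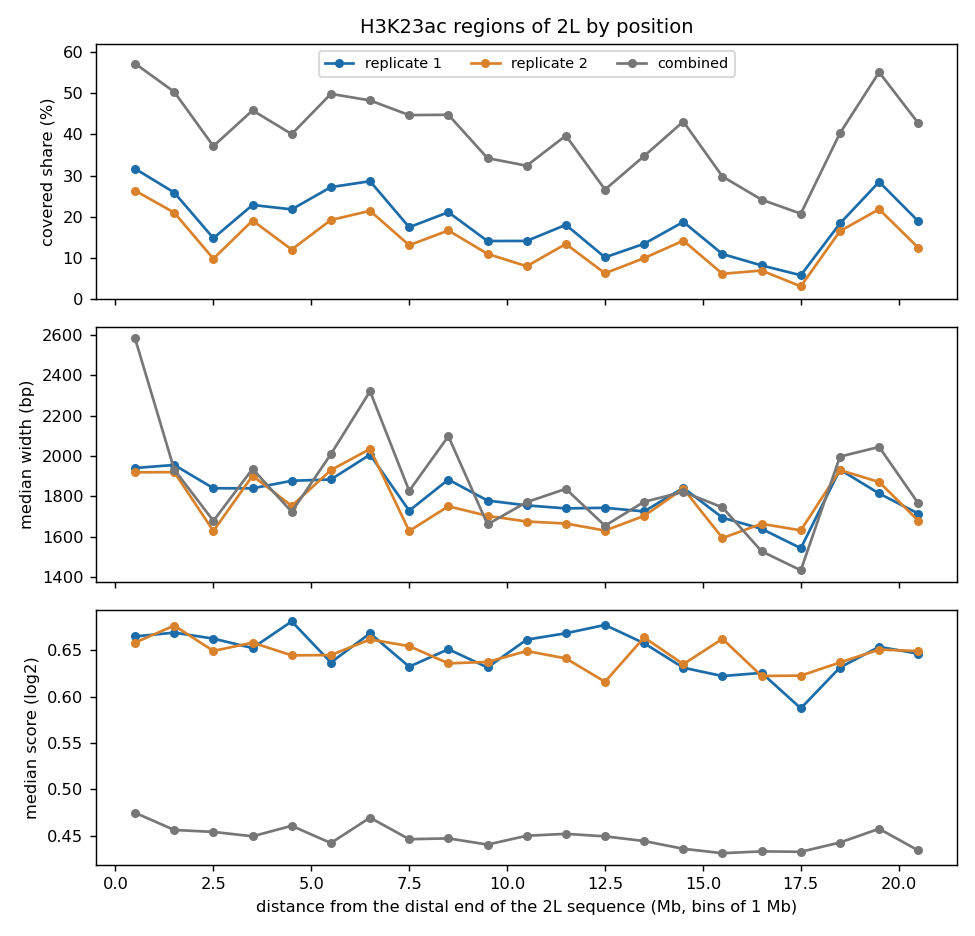
Covered share (%), median region width (bp) and median score (log2) of each list in bins of 1 Mb, plotted against the distance from the distal end of the 2L sequence (Mb). Coverage in the 3 lists is highest in the first bin and lowest in the 18th. Replicate widths have a rho of 0.79 and 0.83 with coverage but are greatest in the 7th bin. Replicate scores move within 0.59 to 0.68, and are lowest in the 18th bin in replicate 1 and in the 13th in replicate 2.

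Median width had a higher rank correlation with coverage along the arm than median score had. The median width per Mb in replicate 1 ran from 1542 bp in the 18th Mb to 2007 bp in the 7th Mb. In replicate 2 it ran from 1593 bp in the 16th to 2035 bp in the 7th. Covered share and median width per Mb had a rho of 0.79 in replicate 1 and 0.83 in replicate 2 over 21 bins, and the widths of the replicates had a rho of 0.81 with each other. These 2 quantities are not independent, since wider regions cover more. Median scores per Mb stayed between 0.59 and 0.68 in replicate 1 and between 0.62 and 0.68 in replicate 2, and had a rho of only 0.29 between replicates. Score and covered share per Mb had a rho of 0.41 and 0.38. The distal, middle and proximal segments had median scores of 0.66, 0.66 and 0.63 in replicate 1, and of 0.66, 0.64 and 0.64 in replicate 2. Wide regions of the replicates were mostly distal: of the 51 regions of at least 5 kb in replicate 1, 35 lay in the distal segment, 8 in the middle and 8 in the proximal one. In replicate 2 these numbers were 28, 6 and 5 of 39. Of all regions, the distal segment held 725 of 1800 in replicate 1 and 533 of 1327 in replicate 2. The combined list was less uneven, with 149, 80 and 85 of its 314 wide regions in these segments. Its distal segment held 1103 of all 3253 combined regions.

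Long empty intervals lay in the middle and proximal segments. No 100-kb window was free of regions in all 3 lists, and 1 window (16900001 to 17000000) had no covered base in either replicate, 0.476% of 210 windows, close to the 0.551% found over the 5 large arms when the proximal 2 Mb of each is left out. That count depended on the list: replicate 1 alone left 4 windows empty and replicate 2 alone left 19. The combined list covered 4.84% of the window that both replicates left empty. Of the 9 gaps of at least 50 kb without a region in any list, together 0.578 Mb or 2.75% of the sequence, 0 lay in the distal segment, 4 in the middle and 5 in the proximal one. In the replicates alone there were 37 gaps of at least 50 kb, with 5, 13 and 19 in these segments, together 3.08 Mb or 14.6%.

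The longest gap in all lists, 17889513 to 17976073, measured 86.6 kb, and lay within a space of 101.6 kb in replicate 1 and of 330.4 kb in replicate 2. Next were 12209785 to 12295661 (85.9 kb) and 17085419 to 17169135 (83.7 kb), where the spaces of replicate 2 were again longer than those of replicate 1, 182.3 against 156.4 kb and 317.7 against 131 kb. The gap 16957587 to 17011595 (54.0 kb) shared that space of replicate 2, so that replicate 2 had no region over 317.7 kb that held 2 of the gaps. The others were 12761989 to 12818611 (56.6 kb), 20152142 to 20207059 (54.9 kb), 16099151 to 16153275 (54.1 kb), 9260239 to 9311157 (50.9 kb) and 10238485 to 10289235 (50.8 kb). In the replicates, sequence within 50 kb on either side of the 9 gaps was sparse too. It was covered to between 1.35% and 9.84% in replicate 1 and between 0 and 4.63% in replicate 2. The combined list covered 12.7% to 38.6% there, against 40.1% of the whole sequence described. Its highest value, beside 9260239 to 9311157, was thus close to the level of the whole. Whether reads could be placed in the gaps was not tested.

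**Figure D3:**
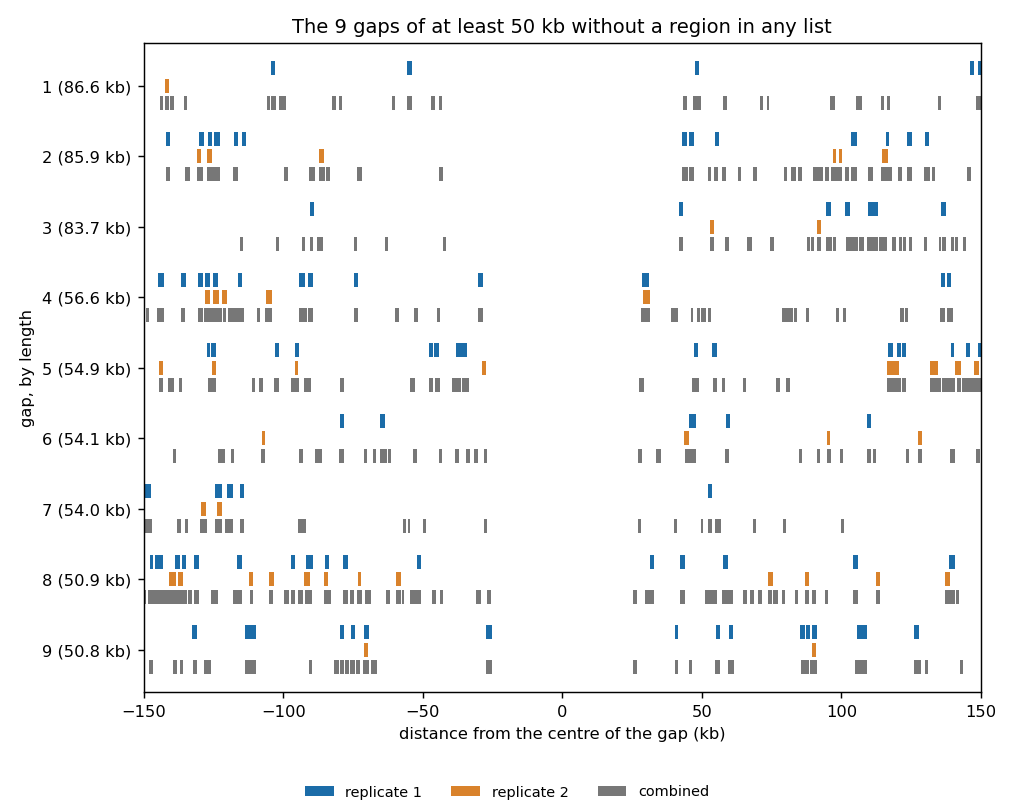
Regions of the 3 lists within 150 kb of the centre of each gap (kb from the centre), with gaps ordered by length, the longest at the top. Combined regions (grey) border most gaps, and the nearest regions of replicate 2 often lie further out than those of replicate 1.

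Sparse windows formed longer runs than dense ones. The 53 sparsest windows, at or below a mean of 6.22%, fell into 24 runs, the longest of 8 windows. The 53 densest windows, at or above 22.9%, fell into 29 runs, none longer than 4 windows. The longest sparse run, 15500001 to 16300000, had covered shares of 4.87% and 1.62% in the replicates and 16.7% when combined. It was followed by 17500001 to 18100000, with 3.51%, 1.35% and 18.8%. The dense runs of 4 windows were the first 400000 bp of the arm sequence, with 27.2% and 26.4% in the replicates, and 5100001 to 5500000.

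Combined regions less than 5 kb apart were joined into islands to describe how far closely spaced H3K23ac regions extend. There were 746 islands with a median length of 7434 bp, and 243 of them (32.6%) were single regions. The 53 islands of at least 50 kb held 32.0% of all combined regions of the arm. This number depended on the joining distance, with 13 such islands at 2 kb and 95 at 10 kb. The longest island, 14378466 to 14624462, measured 246.0 kb and joined 53 combined regions. It was overlapped by 36 regions of replicate 1 and 42 of replicate 2. Replicate 1 covered 35.5% of it, replicate 2 covered 36.1%, and 24.4% was covered in both. Beyond it, 14700001 to 15200000 was a sparse run with 6.74% and 1.48%. The next islands were 11282694 to 11494842 (212.1 kb, 38.0% and 32.9% in the replicates), 5339240 to 5513066 (173.8 kb, 35.0% and 31.6%) and 19191500 to 19345994 (154.5 kb, 44.1% and 44.9%). The fifth, 6158146 to 6309408 (151.3 kb), was covered to 46.1% and 39.3%. In these 5 islands between 16.9% and 28.0% of the bases lay in both replicates.

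Bases covered in both replicates formed 1058 stretches on 2L, together 1.72 Mb or 8.20% of the sequence, with a median length of 1512 bp. Of these, 12 reached 5 kb (1.13%, against 1.43% of the stretches of the whole series) and 3 reached 10 kb. The 12 long stretches all began in the distal segment, between positions 459653 and 6260294. The share of all 1058 stretches that began in that segment is not given here. When regions less than 1000 bp apart were joined first, 59 stretches reached 5 kb, with 37 in the distal segment, 13 in the middle and 9 in the proximal one. The long stretches were mostly apart from each other, with a median distance of 476.6 kb, and 9 of them lay in the densest 52 of the 210 windows. A long stretch itself raises the covered share of its window, so that number does not describe their surroundings alone.

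The longest stretch, 1405885 to 1419116, was 1 region in each list, with widths of 13301 and 14611 bp in the replicates and of 15281 bp when combined. Its scores of 0.77 and 0.75 exceeded those of 84% and 87.0% of the regions of the respective replicate. It lay in the densest window of the arm, 6.88 kb beyond another long stretch, 1391854 to 1399009. The latter was 7156 bp long. In replicate 1 a pair of regions made it up, the higher-scoring of them at 0.96, and in replicate 2 it was 1 region at 0.78. The stretch 6182279 to 6193947 equalled a region of 11669 bp in replicate 1, and lay inside the widest region of replicate 2 (15913 bp, score 0.91) and inside a combined region of 27263 bp. In 4551972 to 4562942 both replicates started at the same base, and their widths were 12952 and 10971 bp.

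Edges nearly coincided in a few of these stretches. In 459653 to 467060, 7408 bp long, the regions started at 459653 and 459646, and their widths were 7559 and 7415 bp. The stretch 5197335 to 5204106 came from regions of 6849 and 6880 bp. In 5965295 to 5971521, from regions of 6791 and 6227 bp, only the starts were close, at 5965245 and 5965295. The ends there were 5972035 and 5971521. The stretch 3060380 to 3066693 scored 0.98 in replicate 1, above 99.1% of its regions, but 0.69 in replicate 2, above 71.2%. In 908958 to 915214 the order was the opposite, with 0.71 and 0.79, above 69.4% and 93.6%. The tenth stretch, 3612055 to 3617486, scored 0.91 and 0.87. The combined scores of the 10 stretches lay between 0.63 and 0.81, above at least 96.2% of combined regions.

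**Figure D4:**
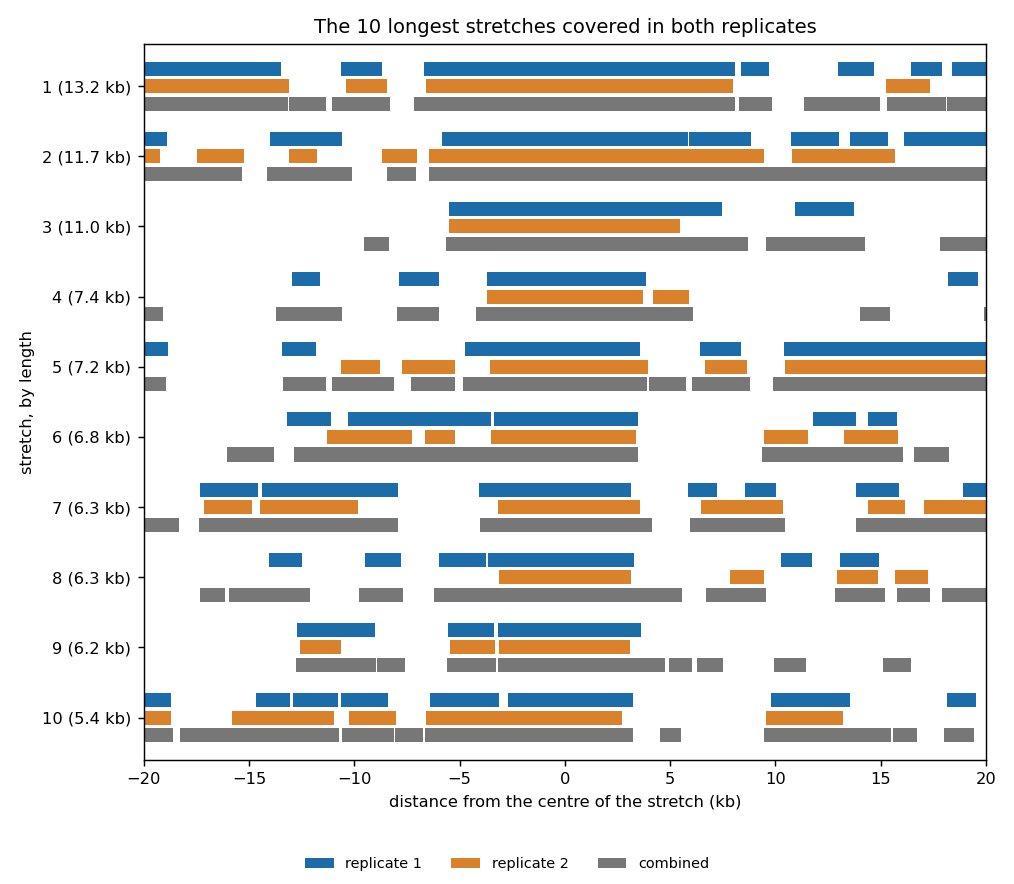
Regions of the 3 lists within 20 kb of the centre of each of the 10 longest stretches covered in both replicates (kb from the centre), ordered by length. The central blocks of replicate 1 (blue) and replicate 2 (orange) nearly coincide in rows 4 and 6 and differ visibly at an edge in others, such as rows 2 and 10, and combined regions (grey) extend beyond them in several rows.

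Over the arm as a whole, the replicates shared fewer bases than they held separately. The Jaccard index (shared over total bases) was 0.339, and shared bases made up 44.0% of the bases of replicate 1 and 59.6% of those of replicate 2. In replicate 1, 942 regions met a region of replicate 2 by at least 1 base, or 52.3% (95% Wilson interval 50.02 to 54.6%), against 51.8% over the whole series. In replicate 2, 957 regions met one of replicate 1, or 72.1% (interval 69.6 to 74.5%), against 72.7%. With at least 50% of a region covered, 42.6% and 59.9% of the regions were shared, against 42% and 62.4%. All 4 shares are close to that background. These intervals cover counting error only and treat regions as independent, although regions cluster along the arm. By Mb, the Jaccard index ran from 0.138 in the 18th Mb, where 18.75% of replicate 1 regions were shared, to 0.448 in the 4th Mb, where 65.6% were.

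Regions found in 1 replicate had lower median widths than shared ones. The 858 unshared regions of replicate 1 had a median width of 1618 bp, against 2070 bp for the shared ones, and 444 of them (51.7%) lay within 5 kb of a region of replicate 2. Of the 370 unshared regions of replicate 2, with a median width of 1571 bp, 268 (72.4%) lay within 5 kb of a region of replicate 1. These shares are near those of the whole series, 52.4% and 75.1%. The combined list covered 96.2% of the bases of the unshared regions of replicate 1 and 93.2% of those of replicate 2. Of the regions of at least 5 kb, 50 of 51 in replicate 1 and 37 of 39 in replicate 2 were shared, where 98.7% and 98.4% of such regions were over the whole series.

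Sharing with the other replicate rose with region width and with score, but had no uniform relation to score within a width class. From the narrowest to the widest quartile, shares rose from 34.2% to 37.8%, 59.6% and 77.8% in replicate 1, and from 54.8% to 62.3%, 79.5% and 91.8% in replicate 2. The part that width alone plays in meeting another region was not measured. Each quartile was then split at its middle score. In the third width quartile of replicate 1, 68% of the lower-scoring regions were shared and 51.1% of the higher-scoring ones. The corresponding shares were 36.9% and 31.6% in its narrowest quartile, 41.8% and 33.8% in the second, and 75.1% and 80.4% in the widest. In replicate 2, from the narrowest quartile to the widest, 53.6%, 65.1%, 77.1% and 89.2% of the lower-scoring regions were shared, and 56.0%, 59.6%, 81.9% and 94.5% of the higher-scoring ones. No test was made of these differences.

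**Figure D5:**
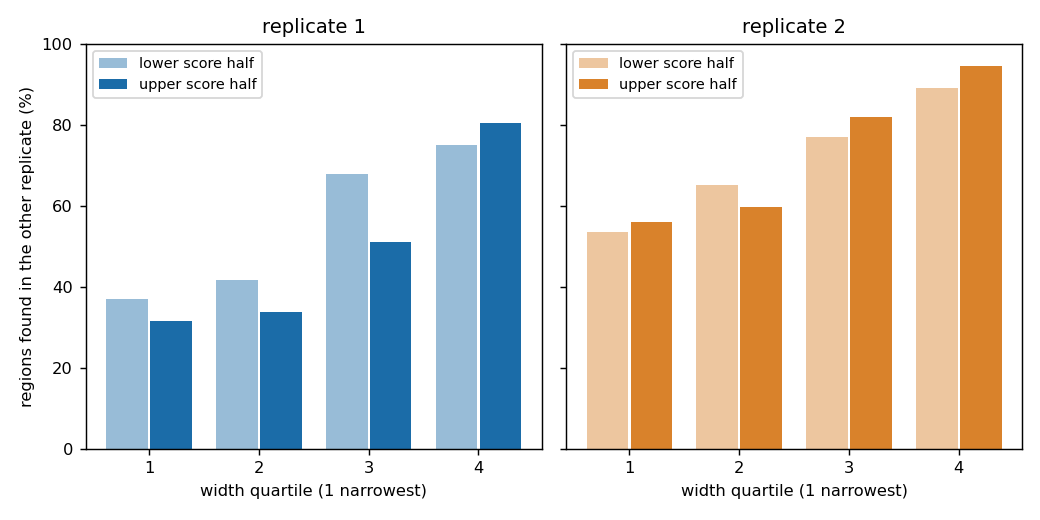
Share of regions found in the other replicate (%) by width quartile, with the lower-scoring regions of each quartile in the pale bar and the higher-scoring ones in the dark bar, for each replicate. Shares rise with width in both replicates; in replicate 1 the pale bar is the taller one in the first 3 quartiles.

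Where regions of the replicates met, their edges seldom coincided. Over 879 pairs matched one to one by largest overlap, the starts differed by a median of 380 bp and the ends by 442 bp. Both edges lay within 200 bp in 115 pairs (13.1%). Replicate 1 had the wider region in 492 pairs and replicate 2 in 386. The rho between the replicates was 0.35 for width and 0.30 for score over these pairs. In 110 regions of replicate 1 there were at least 2 regions of replicate 2, and 95 regions of replicate 2 held at least 2 of replicate 1.

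The highest score of replicate 1 on 2L belonged to 11436094 to 11441211, at 1.33 on the log2 scale, and a region with nearly the same position (11436180 to 11441093) was second in replicate 2, at 1.05. The combined region there, 11434788 to 11441506, scored 0.91 and was the highest of those found in both replicates. It lay in the second-longest island. The third-highest region of replicate 1, 1950258 to 1954403 at 1.17, was covered to 98.4% by replicate 2, and the third of replicate 2, 12080834 to 12086016 at 0.97, to 74.2% by replicate 1. The other leading regions had no counterpart in the other replicate. Second in replicate 1 was 13475382 to 13476730, 1349 bp wide, at 1.24, with no base in replicate 2 but 88.6% of its bases in combined regions. The highest of replicate 2, 20150627 to 20152141, 1515 bp wide, at 1.29, had no base in replicate 1 or in the combined list, and borders the gap that begins at 20152142.

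In the combined list, median width and median score were highest for regions found in both replicates and lowest for those found in neither. Of its 3253 regions, 791 (24.3%, 95% Wilson interval 22.9 to 25.8%) shared a base with both replicates. A further 996 (30.6%, interval 29.1 to 32.2%) did so with 1 replicate, and 1466 (45.1%, interval 43.4 to 46.8%) with neither. Over the series these shares were 24.4%, 31.6% and 43.9%. The intervals cover counting error only and treat regions as independent, although regions cluster along the arm. Median widths of these classes were 4031, 1989 and 1315 bp, and median scores 0.53, 0.44 and 0.42. Of the regions in neither replicate, 993 (67.7%) lay within 5 kb of a supported one. Of all spaces between consecutive combined regions 77.1% were under 5 kb, but this is another measure and no baseline for that share. The share of unsupported regions near a supported one was not computed over the whole series, so the 67.7% is given without a background. Support varied along the arm: 43.1% of the combined regions of the first Mb were in both replicates and 26.8% in neither, whereas in the 18th Mb 5.13% were in both and 65.0% in neither.

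The 7 highest scores of the combined list on 2L, however, belonged to regions found in neither replicate. These regions were between 1009 and 1231 bp wide and scored from 0.98 to 2.71, the highest at 2111980 to 2113018. All were narrower than the narrowest region of either replicate list. The next 13 regions were all found in both replicates, with 5683 bp and 0.84 for 12080776 to 12086458, 8963 bp and 0.82 for 4517032 to 4525994, and 9897 bp and 0.81 for 3608100 to 3617996. These were followed by 5013286 to 5018730 and 783878 to 789348, both at 0.80, 3046178 to 3055604, at 0.79, and 1390586 to 1399328, at 0.78. In 783878 to 789348 the ranks differed, with a score above 99.7% of the regions of replicate 1 and above 79.4% of those of replicate 2. Of the 8 highest supported regions, 6 lay in the distal segment, which held 1103 of all 3253 combined regions. Its share of all regions found in both replicates is not given here. There 25.6% of the combined bases lay in both replicates, against 16.0% in the middle segment and 18.3% in the proximal one.

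Set beside the corresponding part of 3 other arms, 2L was covered to 16.2% ± 3.44 (SD, n = 2), 3L to 16.9% ± 3.905, 3R to 18.2% ± 4.33 and the X to 11.96% ± 4.97. Each SD comes from the same pair of samples and mostly holds the difference between the replicates that the 4 arms share, so no test between arms was made. Within each replicate the order was the same, with 15.5% on the X, 18.6% on 2L, 19.7% on 3L and 21.3% on 3R in replicate 1, and 8.45%, 13.7%, 14.2% and 15.1% in replicate 2. The Jaccard index was 0.339 on 2L, 0.352 on 3L, 0.350 on 3R and 0.269 on the X. Gaps of at least 50 kb took up 2.75% of the sequence on 2L, 1.42% on 3L, 0.673% on 3R and 4.52% on the X. Windows with a mean of at least 40% numbered 7 of 210 on 2L, 17 of 225 on 3L, 14 of 259 on 3R and 2 of 204 on the X. Arm 2R was not set beside them, so these values do not rank 2L among all 5 large arms.

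At the limit of the part described, the last regions inside were 21008062 to 21010748 in replicate 1 and 21008566 to 21010679 in replicate 2, with scores of 0.67 and 0.66. The first outside were 21014704 to 21016408 and 21014871 to 21017080, with scores of 0.57 and 0.75. In the combined list a region of 24129 bp, 20996892 to 21021020, straddled the limit and was left out.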

How the data were processed

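The 3 lists hold enriched regions as the authors deposited them, with positions on FlyBase release 5 per the file headers. Per the submitters' processing notes Bowtie 0.12.7 is among the tools, in a role they do not state. For the region caller, its threshold and the making of the combined list, the sources used here give nothing. All starts and ends of combined regions on 2L were even numbers, against 48.4% to 50.2% in the replicates. The deposited score is read as a log2 value: relative to 1 region, 2 to the power of the score difference equalled a whole-number ratio with terms up to 20000 (relative tolerance 1e-12) for at least 97.6% of regions in each list, against at most 0.556% for natural or decimal logarithms. What it is relative to is not stated, so scores of different lists are printed side by side but compared only within a list or by rank.

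Intervals were intersected in bases. Regions in windows were counted by their start. The interval steps were tested on simulated data. Regions are named by set rules: the 10 longest shared stretches, the 8 densest windows of 100 kb, the 4 that differed most between replicates, empty windows, all gaps of at least 50 kb, the 5 longest islands, the 8 highest combined regions in both replicates, and the 3 highest and 3 widest regions of each replicate. The widest region of replicate 1, 4494783 to 4508327 (13545 bp, score 0.83), was covered to 48.4% by replicate 2. Members, rules and lists were chosen with earlier results of these data known. With 2 samples of 1 group no test was made across samples. No column was left unused for lack of a sample. Python 3.11.15, numpy 2.4.6, scipy 1.17.1 and matplotlib 3.10.9 were used.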

Additional observations from a re-analysis of the deposited data

How the results depend on the processing

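Of 29 alternative values, 9 stayed within the replicate SD, the Wilson interval, the SD of the Jaccard index over bins of 1 Mb (0.0801) or 1.5 times a count, and 20 did not. The 9 include the covered share without either replicate, which with 2 replicates stays within the SD by construction. Leaving out a replicate gave 13.7% to 18.6% for the covered share, 3.81% to 4.76% for dense windows and 1.90% to 9.05% for empty windows. When regions at or below their list's median score were dropped, the covered share was 9.67%, the Jaccard index 0.247, and the share of regions found in the other replicate 37.4% for replicate 1 and 52.5% for replicate 2, which follows in part from the shorter lists. With at least 50% of a region covered these shares were 42.6% and 59.9%, and combined regions met both replicates in 14.0%, 1 in 34.8% and neither in 51.1% of cases, since more overlap is asked for. Windows of 50 kb were dense in 5.48% and empty in 5% of cases, and windows of 250 kb in 1.19% and 0%. Gaps of at least 50 kb numbered 37 in the replicates alone and 28 for regions at or above the median score, since fewer regions can fill them. Islands of at least 50 kb numbered 13 and 95 with joining below 2 and 10 kb, and shared stretches of at least 5 kb numbered 59 after joining regions under 1000 bp apart. No paired analysis was possible because lists are at hand for the ChIP samples alone. Depth is unknown, so its effect on the differing list lengths was not measured.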
